A study of Arabidopsis thaliana with 10 samples.

Results

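GH3.3 (locus AT2G23170) is a gene of auxin conjugation in Arabidopsis thaliana, measured here by a single array feature, probe set 245076_at. The probe set was taken because it names exactly 1 gene, with the symbol GH3.3. It is 1 of 22810 probe sets on the array, of which 22745 were non-control probe sets with values and 13512 named 1 gene, for 13349 genes in all. GH3.3 was selected on its measured levels in these arrays, which were high at the later times after pollination, so its own levels and differences are given as a description with no test. The series holds 10 arrays in 5 groups of 2, all from ecotype Columbia; the labels name no mutant or transgene. All flowers were emasculated, 24 hours ahead of pollination where they were pollinated. The labels do not state how long after emasculation the unpollinated pistils were taken, so in each difference from them pollination and pistil age cannot be told apart. The groups are unpollinated pistils, pollinated pistils taken at 0.5 HAP (hours after pollination), 3.5 HAP or 8 HAP, which carry pollen and pollen tubes, and unfertilised ovules dissected out of unpollinated pistils. Each pistil replicate pooled 20 pistils of at least 10 plants, and each ovule replicate about 1500 ovules from 50 pistils of about 30 plants, so the spread between replicates is a spread between pools.

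GH3 proteins are acyl acid amido synthetases: they join amino acids to plant hormones. The enzymes of the auxin-conjugating group, to which GH3.3 belongs, attach amino acids such as aspartate and glutamate to indole-3-acetic acid, the main natural auxin, and so take it out of the active pool. GH3 genes of this group are, with the Aux/IAA and SAUR families, the classic early transcripts that auxin itself induces, which makes them both a read-out of auxin and a brake on it. In the flower, auxin patterns the gynoecium, and it is a known trigger of fruit set once ovules are fertilised.

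Array medians lay between 251.5 and 272.2, so the arrays were on a common scale. Replicate arrays correlated at r between 0.991 and 0.997 over probe sets, which are not independent of each other. The second unpollinated array stood apart in RNA quality, with a log2 ratio of 2.96 between the 3' and 5' ends of an actin control. The other 9 arrays were at 1.93 to 2.55. It was also the highest for a GAPDH control, at 0.78 against 0.36 to 0.68. An earlier design of the 2 controls gave ratios of 3.33 to 3.79 (actin) and 2.26 to 2.74 (GAPDH) over all arrays, so the 3' end read higher throughout. Values up to 136.5, the 95th percentile of 27 bacterial control probe sets, are called background level here. Groups were checked against tissue markers. Of 11 listed ovule and embryo sac markers 5 were measured, and INO, BAN, EC1.2, EC1.5 and AGL62 were all higher in ovules than in unpollinated pistils (5 of 5 by limma, where 29.6% of all probe sets were called higher). Their summed level was 6150 and 6662 in ovules and between 1430 and 2230 on the pistil arrays, with AGL62 at background level in every group.

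GH3.3 was at background level in unpollinated pistils, with values of 32.3 in replicate 1 and 29.5 in replicate 2 (mean 30.9 ± 1.95, SD, n = 2). At 0.5 HAP the arrays read 60.1 and 74.1 (67.1 ± 9.87, SD, n = 2), still below the background level. At 3.5 HAP they read 839.5 and 679.9 (759.7 ± 113, SD, n = 2). The gene thus passed from under the background level to well above it between 0.5 and 3.5 HAP, and the mean at 3.5 HAP was 5.57 times that level. At 8 HAP the arrays read 937.9 and 1087 (1012 ± 105, SD, n = 2), which is 7.42 times the background level. In ovules the arrays read 15.5 and 33.5 (24.5 ± 12.7, SD, n = 2), at the bottom of the scale.

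In order of level the groups ran from ovules through unpollinated pistils, 0.5 HAP and 3.5 HAP to 8 HAP. Ovules and unpollinated pistils overlapped and did not differ beyond their spread. The other neighbours in this order did not overlap, but such separation is common with 2 arrays a group: both arrays at 0.5 HAP lay above both unpollinated arrays for 30.2% of all probe sets, both at 3.5 HAP lay above both at 0.5 HAP for 26.8%, and both at 8 HAP lay above both at 3.5 HAP for 43.2%. Its mean exceeded those of 3.81% of all probe sets before pollination, 13.6% by 0.5 HAP, 79.2% by 3.5 HAP, 85.4% by 8 HAP and 2.74% in ovules. These percents place signals of different probe sets side by side, which differ in affinity, so they do not rank transcripts.

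**Figure D1:**
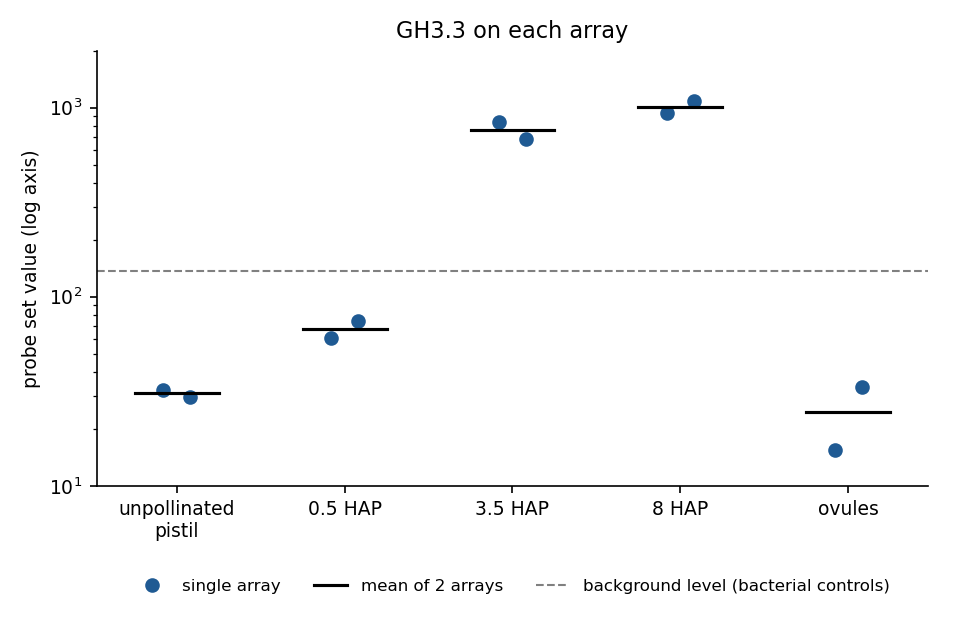
Probe set value of GH3.3 (log axis) on each of the 10 arrays, by group; points are single arrays, bars the mean of 2, and the dashed line the background level of 136.5. The 4 arrays of unpollinated pistils and 0.5 HAP and the 2 of ovules lie below the line, and the 4 arrays at 3.5 and 8 HAP lie between 679.9 and 1087.

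Differences between groups were taken on the log2(value + 16) scale, where the 16 added damps the noise of dim probe sets and understates the change of a gene that starts at background level. Since the starting level of GH3.3 is in the background, its folds give no exact size. At 0.5 HAP the difference from unpollinated pistils was 0.82 on this scale (1.77-fold), and the 4 pairs of single arrays gave 0.66 to 0.98. This placed GH3.3 at rank 656 by rise, with 97.1% of the 22745 probe sets below it. At 3.5 HAP the difference was 4.04 (16.5-fold; 3.85 to 4.23 over the 4 pairs) and the rank was 6. The ratio of the untransformed means was 24.6. At 8 HAP the difference was 4.45 (21.9-fold; 4.30 to 4.60) and the rank 8. The median difference of all probe sets was between -0.07 and -0.01 in these 3 comparisons, and their 99th percentile between 1.45 and 1.78. The comparisons share the unpollinated arrays, and leaving out the second of these, which stood apart in RNA quality, gave 0.78, 4.00 and 4.41.

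The 2 steps between pollinated times do not use the unpollinated arrays. The later pistils are also older since emasculation, so in these steps too pollination and pistil age cannot be told apart. From 0.5 to 3.5 HAP the difference of GH3.3 was 3.22 (9.32-fold; 2.95 to 3.49 over the 4 pairs of arrays), against a 99th percentile of 0.77 for all probe sets. It ranked second of 22745, below AT3G26870, a gene of the plant self-incompatibility S1 family, at 3.49, and just above AT5G39580, a peroxidase, at 9.22-fold. From 3.5 to 8 HAP the difference was 0.41 (1.33-fold; 0.16 to 0.66 over the pairs), against a median of 0.05 over all probe sets, and the rank was 2592. The large step of GH3.3 lay between 0.5 and 3.5 HAP, and 88.6% of probe sets were below it in the later step. Without 3.5 HAP replicate 2 the later step was 0.26 and its rank 5176. AT5G39580, with nearly the same step to 3.5 HAP, went the other way afterwards, from a mean of 797.1 at 3.5 HAP to 378.3 at 8 HAP. In ovules the difference of GH3.3 from unpollinated pistils was -0.25, with the pairs of arrays between -0.62 and 0.12 and both means within the background level.

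**Figure D2:**
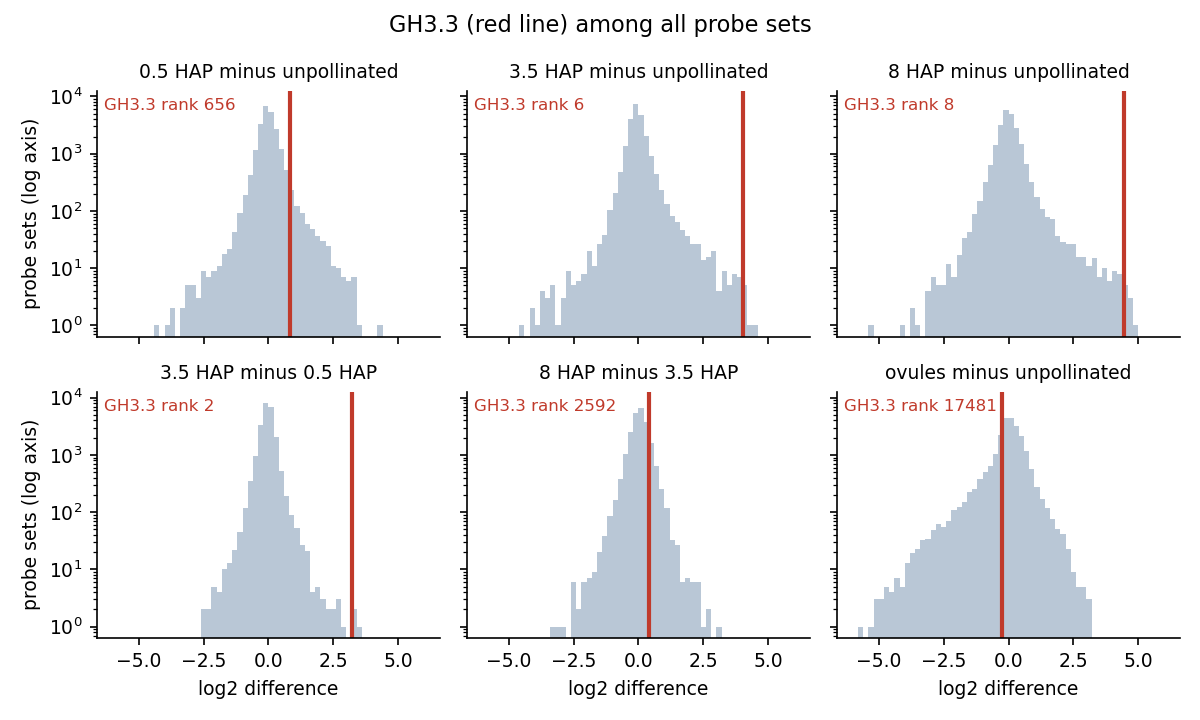
Distribution of log2 differences over 22745 probe sets (bars, log axis) in 6 comparisons, with GH3.3 as a red line. GH3.3 lies at the upper edge at 3.5 HAP (4.04) and 8 HAP (4.45) against unpollinated pistils and in the step from 0.5 to 3.5 HAP (3.22), and below the 99th percentile in the other 3.

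The timing of GH3.3 was set beside that of the other large rises. There were 143 probe sets, GH3.3 included, at least 4-fold higher at 3.5 HAP than in unpollinated pistils with a mean at 3.5 HAP above the background level. For each, the rise of the mean value at 0.5 HAP was taken as a percent of the rise at 3.5 HAP. GH3.3 had made 4.97% of its 3.5 HAP rise by 0.5 HAP. The median of the 143 was 47.7%, with quartiles of 35.2% and 65.3%, and 9 had a lower percent than GH3.3. On the log2(value + 16) scale 122 of the 143 (85.3%) were already at least 2-fold higher at 0.5 HAP; GH3.3 was at 1.77-fold on that scale, and its untransformed means had a ratio of 2.17, both within the background level. There were 17 with a smaller log2 difference than GH3.3 at 0.5 HAP, and none of these 17 had a larger one at 3.5 HAP. After 3.5 HAP the timing of GH3.3 was near the middle of the set: its rise at 8 HAP was 1.35 times that at 3.5 HAP, against a median of 1.28 with quartiles of 0.91 and 1.51, and 46 of the 143 were lower at 8 than at 3.5 HAP. These percents share the unpollinated arrays and are a description.

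The genes that stood next to GH3.3 in size of rise differed from it in this early part. At 3.5 HAP 5 probe sets ranked above it, of which 3 named 1 gene: AT3G07820, a polygalacturonase (4.45), AT5G26700 (4.07) and AT3G01270, a pectate lyase (4.06). Their differences at 0.5 HAP were already 3.44, 2.50 and 3.02, against 0.82 for GH3.3. The 3 genes next below it, AT2G25510, AT5G39880 and AT3G28750, had differences of 3.97, 3.93 and 3.87 at 3.5 HAP, and the lowest of the 3 at 0.5 HAP was AT3G28750 at 2.83. At 8 HAP the 4 named genes above GH3.3 were UF3GT, a glycosyltransferase that modifies anthocyanins, AT5G39880, AT1G49290 and AT3G01270. Of these UF3GT was the lowest at 0.5 HAP, at 1.52. Below GH3.3 at 8 HAP came AT3G07820, AT3G28750 and scpl38, the last of which was at 2.10 at 0.5 HAP.

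**Figure D3:**
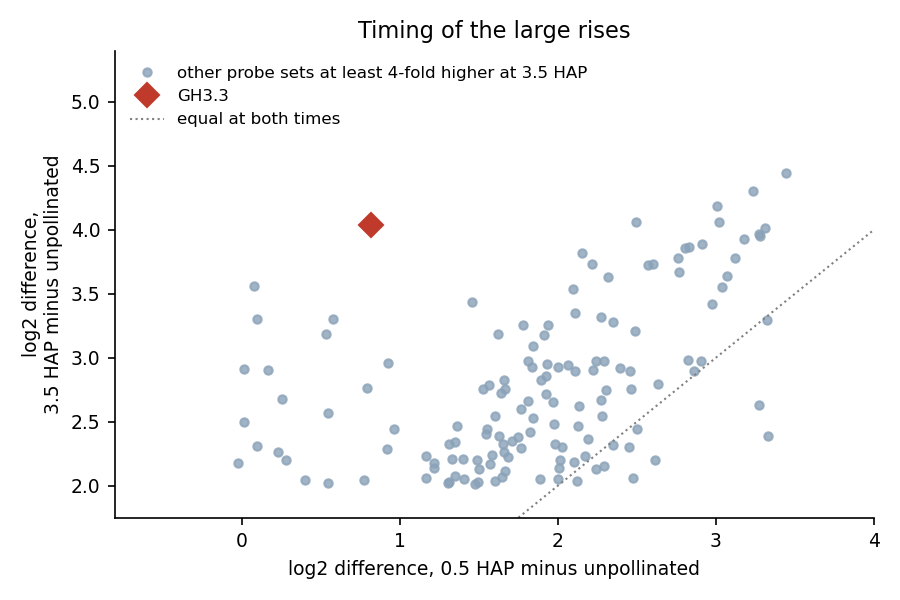
The 143 probe sets at least 4-fold higher at 3.5 HAP, by log2 difference from unpollinated pistils at 0.5 HAP (horizontal) and at 3.5 HAP (vertical); the dotted line marks equal differences, and both axes share the unpollinated arrays. GH3.3 (red) lies at 0.82 and 4.04, above every other probe set with a difference at 0.5 HAP as small as its own.

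Pollinated pistils contain pollen RNA, so markers of pollen and pollen tubes were followed beside GH3.3. Of 17 listed markers 6 were measured under a name of their own: the receptor kinases ANX1, ANX2, BUPS1, BUPS2 and MDIS1, and the pollen tubulin TUA1. All 6 rose by limma at 0.5, 3.5 and 8 HAP against unpollinated pistils (15.5%, 12.9% and 19.7% of all probe sets were called higher). Their summed level on the 2 arrays was 696.9 and 680.4 before pollination, then 1265 and 1181 (0.5 HAP), 1605 and 1823 (3.5 HAP) and 2005 and 2028 (8 HAP), with 742.5 and 779.8 in ovules. In unpollinated pistils and ovules every marker but TUA1 was at background level, and at 8 HAP only BUPS2 was. The sum had made 52.1% of its 3.5 HAP rise by 0.5 HAP, where GH3.3 had made 4.97%. TUA1 was the largest part of this sum, with means of 476.4 before pollination and 778.4 at 0.5 HAP, and had made 70.0% of its own rise by then. At 0.5 HAP BUPS2, ANX1, BUPS1 and MDIS1 were still at background level, so their percents are uncertain. ANX2, which was above it, had made 37.6%. The lowest percent among the 6 was that of ANX1, at 30.6%. The 6 stigma, style and transmitting tract markers measured of 9 listed (NGA1, SPT, ARPN, CES, SHI and AT3G12000) summed to 4691 and 4252 before pollination, 8227 and 8207 (0.5 HAP), 8493 and 7457 (3.5 HAP), 3744 and 3975 (8 HAP), and 4554 and 4691 in ovules. These 6 did not move together: against unpollinated pistils 3 were called higher and 1 lower at 0.5 HAP, and 2 and 4 at 8 HAP. Of all probe sets 14.7% and 18.8% were called lower at these times. In ovules ARPN and SHI were called higher and the other 4 lower, where 29.6% and 22.0% of all probe sets were. The sum thus does not follow stigma, style and transmitting tract alone. Most of its change at 0.5 HAP was ARPN, which read 1446 and 1049 before pollination, 5003 and 4950 at that time, and 2438 and 2645 in ovules. The part of pollen RNA, or of changes in the make-up of the tissue, in the level of GH3.3 was not tested. In these whole pistils more cells with the transcript and more transcript per cell cannot be told apart.

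The other GH3 genes were then compared, with limma on all 5 groups and Benjamini-Hochberg adjustment over all 22745 probe sets. Of 19 listed family members 11 had a probe set naming 1 gene. Of the 10 besides GH3.3, only GH3.17 and GH3.5 were above the background level in any group. GH3.2, GH3.4, GH3.6, GH3.10, GH3.14, GH3.15, JAR1 and PBS3 were not analysed here. GH3.2 and GH3.4 are close relatives of GH3.3, and whether their transcripts add to its signal was not tested. None of the 10 came near the span of GH3.3: between the lowest and highest pistil group, GH3.3 spanned 4.45 on the log2 scale, and the next was GH3.9 at 0.89.

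GH3.17, which attaches glutamate to indole-3-acetic acid, was well above background level in every pistil group, with 870.7 and 814.1 before pollination, 906.9 and 843.4 (0.5 HAP), 1097 and 1120 (3.5 HAP) and 1146 and 1097 (8 HAP). All 4 arrays at 3.5 and 8 HAP were above all 4 of the earlier groups. It rose by 0.39 at 3.5 HAP (SE 0.083, adjusted p = 0.00478) and by 0.41 at 8 HAP (adjusted p = 0.00266), the only rises among the 10, where 12.9% and 19.7% of all probe sets were called higher. In ovules GH3.17 read 69.8 and 69.2, within the background level, a difference of -3.33 from unpollinated pistils (SE 0.083, adjusted p = 2.26e-10), whose exact size is uncertain because the ovule value is in the background. GH3.3 was thus at background level before pollination in both pistils and ovules, whereas GH3.17 was well above it in pistils and within it in ovules.

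GH3.9, also of the auxin-conjugating enzymes, read 99.4 and 125.1 in unpollinated pistils and 46.99 and 59.7 at 8 HAP, all within the background level. It fell by 0.89 at 8 HAP (adjusted p = 0.000398), where 18.8% of all probe sets were called lower, and was called lower in ovules too (-1.16, adjusted p = 2.40e-05). GH3.5 (WES1), which acts on auxin and salicylic acid, read 656.4 and 828.3 before pollination, 514.3 and 519.0 (0.5 HAP), 660.9 and 692.5 (3.5 HAP) and 601.2 and 770.3 (8 HAP). Its difference at 0.5 HAP was -0.50 (adjusted p = 0.0711), with both arrays below both unpollinated ones. At 3.5 HAP the difference was -0.12 (adjusted p = 0.666), and those arrays overlapped the unpollinated ones. In ovules it read 568.2 and 349.9, a difference of -0.70 (adjusted p = 0.00925). Leaving out ovule replicate 2 gave an adjusted p of 0.0879, and leaving out unpollinated replicate 2 gave 0.0679. GH3.1, an auxin-conjugating member, stayed between 45.0 and 58.8 on all 10 arrays. GH3.7, GH3.8, GH3.13, GH3.16, GH3.18 and GH3.19 were within the background level in every group, and of these GH3.16 was called lower at 0.5 HAP (-0.29, adjusted p = 0.0429), where 14.7% of all probe sets were. That call missed the threshold under 12 of 17 alternatives, without any of the 4 arrays compared except unpollinated replicate 1 (adjusted p = 0.13 to 0.257) among them.

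In the step from 0.5 to 3.5 HAP, where GH3.3 ranked second of all probe sets, 1 of the 10 other members was called higher, GH3.17 by 0.34 (adjusted p = 0.0213), against 5.19% of all probe sets. It missed the threshold without any 1 of the 4 arrays compared (adjusted p = 0.0799 to 0.17). From 3.5 to 8 HAP GH3.9 was called lower (-0.59, adjusted p = 0.00776; 12.4% of all probe sets were lower), and its adjusted p was 0.0696 without the first array at 3.5 HAP and 0.0783 without the first at 8 HAP. In ovules 5 of the 10 were called lower and 0 higher, where 22.0% and 29.6% of all probe sets were; these were GH3.17, GH3.9, GH3.5, GH3.18 (-0.38, adjusted p = 0.00405) and GH3.16 (-0.31, adjusted p = 0.0208). The median difference of the 10 in ovules was -0.28, against 0.04 over all probe sets. With arrays centred on reference genes all 10 were called lower, but so were 11924 of the 22745 probe sets. That setting moved the median over all probe sets to -0.32. The count was 3 without ovule replicate 2 or unpollinated replicate 2.

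Outside the family, 15 genes of auxin action were measured under a name of their own: 7 of 29 listed Aux/IAA genes, 4 of 20 of synthesis (all YUC genes) and 4 of 12 of inactivation. The other members of these lists were not analysed here, so the 15 do not stand for the auxin response as a whole. Only 5 of the 15 were above the background level in any group: IAA18, IAA31, DAO1, YUC2 and YUC6. For the others a missing call does not show that the transcript was steady. The lists of auxin receptors (6 genes), auxin response factors (19), auxin transport (16) and SAUR genes had 0 members with a probe set that the annotation used here names for that gene alone, and they were not analysed here. At 3.5 HAP, where GH3.3 stood at rank 6, 0 of the 15 passed limma at an adjusted p of 0.05 in either direction, and 1, IAA34, had an unadjusted p under 0.05; 29.9% of all probe sets passed. The adjusted count was 1 without 3.5 HAP replicate 2 or unpollinated replicate 2, and 3 without unpollinated replicate 1. The median difference of the 15 was -0.05, against -0.07 over all probe sets.

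At 8 HAP 3 of the 15 rose and 1 fell, against 19.7% and 18.8% of all probe sets. IAA31, of the Aux/IAA family, read 32.8 and 34.0 before pollination, 39.2 and 50.5 (0.5 HAP), 36.7 and 44.5 (3.5 HAP) and 166.0 and 177.5 (8 HAP). It rose by 1.93 at 8 HAP (SE 0.169, adjusted p = 6.43e-06) and by 1.73 from 3.5 to 8 HAP (adjusted p = 6.60e-05), both from within the background level. GH3.3 and IAA31 thus had their largest steps in different intervals, GH3.3 before 3.5 HAP and IAA31 after it. IAA20, of the same family, rose by 0.45 within the background level (adjusted p = 0.00823), a call that did not hold without unpollinated replicate 1. DAO2, a relative of the auxin oxidase DAO1, rose by 0.40, also within that level (adjusted p = 0.0389), and missed the threshold under 5 of 17 alternatives, among them leaving out the first array at 8 HAP or either unpollinated array (adjusted p = 0.0928 to 0.309). YUC6, a flavin monooxygenase of auxin synthesis, fell by 0.40, from 211.2 and 237.9 to 171.3 and 161.6 (adjusted p = 0.00523, and 0.0506 without 8 HAP replicate 2).

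At 0.5 HAP 1 of the 15 rose, IAA18 by 0.55 (adjusted p = 0.00693, and 0.0582 without 0.5 HAP replicate 1), and 1 fell, YUC2 by 0.30 (adjusted p = 0.044), against 15.5% and 14.7% of all probe sets. IAA18 read 581.4 and 430.4 in unpollinated pistils and 757.3 and 728.0 at 0.5 HAP. YUC2 missed the threshold under 8 of 18 alternatives, among them leaving out any of the 2 arrays at 0.5 HAP or unpollinated replicate 2 (adjusted p = 0.157 to 0.245). In the step from 0.5 to 3.5 HAP DAO1 (0.36, adjusted p = 0.0352) and YUC11 (0.61, adjusted p = 0.0263) were called higher and IAA18 lower (-0.43, adjusted p = 0.0422). These were 3 of 15, where 14.2% of all probe sets were called in either direction. YUC11 was within the background level in every group, and read 114.9 and 68.1 at 3.5 HAP against 69.5 and 78.6 before pollination. DAO1 and IAA18 missed the threshold without any 1 of the 4 arrays compared, and YUC11 without 3 of them, with adjusted p up to 0.224, 0.221 and 0.148. From 3.5 to 8 HAP IAA31, IAA20 and IAA34 rose and YUC6 fell, against 18.9% and 12.4% of all probe sets. IAA34 rose by 0.33 within the background level (adjusted p = 0.018) and missed the threshold without either array at 3.5 HAP or 8 HAP replicate 2 (adjusted p = 0.0586 to 0.158), IAA20 missed it without 8 HAP replicate 1 (adjusted p = 0.0512), and YUC6 without any 1 of the 4 (adjusted p = 0.0629 to 0.21).

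In ovules 2 of the 15 were higher than in unpollinated pistils, against 29.6% of all probe sets: DAO2 by 1.36 (adjusted p = 8.03e-06), within the background level, and DAO1, which oxidises auxin, by 0.66, from 410.4 and 356.5 to 573.2 and 656.2 (adjusted p = 0.000204; 0.063 with arrays centred on reference genes). Called lower were 4 of the 15, where 22.0% of all probe sets were, all with group means within the background level: UGT74D1, a glycosyltransferase that acts on auxins (-0.97, adjusted p = 0.00025), IAA33, IAA30 and YUC4. IAA30 missed the threshold under 10 of 16 alternatives. UGT84B1, which glucosylates auxin, and IAA29 passed in none of the 6 comparisons.

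**Figure D4:**
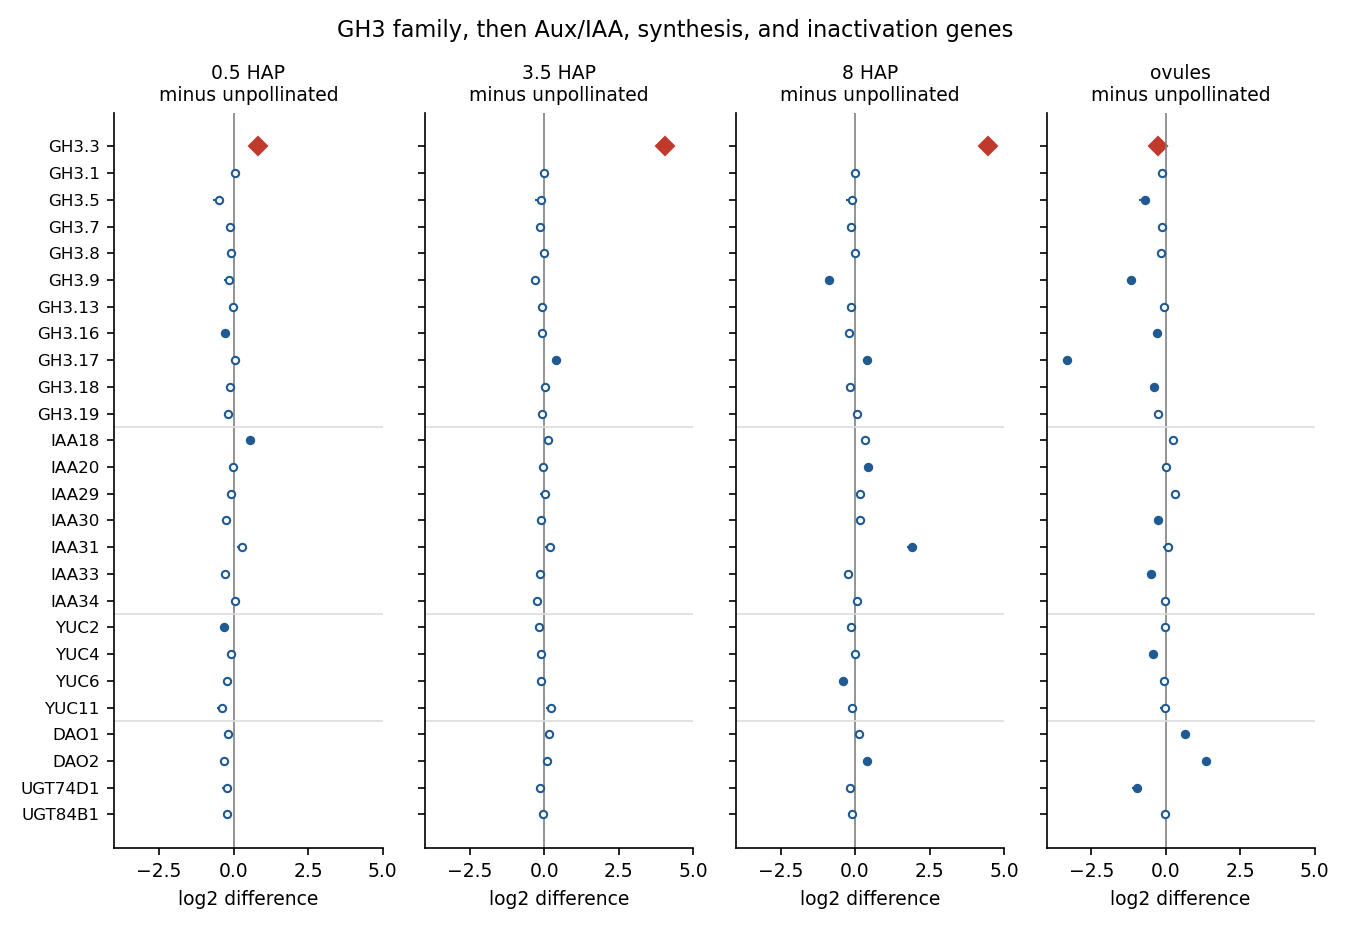
Log2 differences from unpollinated pistils at 3 times after pollination and in ovules, for GH3.3 (red diamond, no test) and 25 other auxin genes (circles with SE bars from limma; filled where the adjusted p is under 0.05), grouped as GH3 family, Aux/IAA, synthesis and inactivation. GH3.3 lies at 4.04 and 4.45 at 3.5 and 8 HAP, where the largest other difference is IAA31 at 1.93, and GH3.17 lies at -3.33 in ovules.

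The genes with the pattern most like GH3.3 were sought by Pearson's r of log2(value + 16) over the 10 arrays, which come as 5 groups of 2. Candidates were the 2253 other probe sets that named 1 gene, exceeded the background level in at least 1 group and spanned at least 2-fold between groups. Their median r with GH3.3 was 0.19, and 93 reached 0.9. AT3G26870, of the S1 family, was highest (r = 0.988): its group means were 11.3 before pollination, 12.8 (0.5 HAP), 308.7 (3.5 HAP), 366.3 (8 HAP) and 9.13 (ovules). AT3G27410 (0.985), AT2G22180 (0.979), AT5G40155 (0.976) and AT3G26880, a further S1 family gene (0.974), followed. AT5G64100, a peroxidase (0.973), AT1G65500 (0.971) and AT1G53010 (0.970) completed the 8. Pearson's r compares shape and not size. On the log2(value + 16) scale the difference at 3.5 HAP was 4.04 for GH3.3 and 3.56 for AT3G26870, AT3G26880 was at 9.10-fold, and the other 6 had differences between 0.85 and 1.68. The unpollinated means of all 8 and of GH3.3 were within the background level, so the added 16 sets part of these sizes. By 0.5 HAP the 8 had made between -2.81% (AT5G64100) and 32.9% (AT2G22180) of the rise seen at 3.5 HAP, with AT3G26870 at 0.50%, AT3G26880 at 5.52% and GH3.3 at 4.97%. Low percents are favoured by the choice of these genes by r with GH3.3. AT2G22180 and AT1G53010 were still within the background level at 3.5 HAP, with means of 135.7 and 110.5, so their percents are uncertain. The list depended on the measure: with only the 8 pistil arrays 3 of the 8 were again among the first 8, and 1 was by Spearman's rho.

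**Figure D5:**
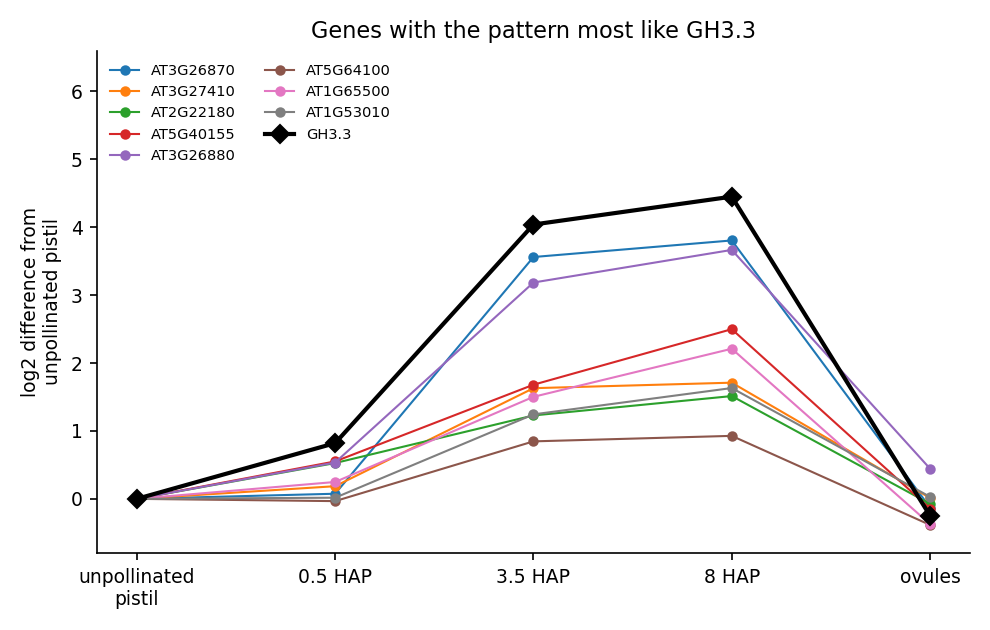
Mean log2 difference from unpollinated pistils in the 5 groups for GH3.3 (black) and the 8 genes with the highest Pearson r with it over 10 arrays. All 9 curves lie higher at 3.5 HAP than at 0.5 HAP, which the choice of the 8 by r favours. The 2 S1 family genes, AT3G26870 and AT3G26880, come nearest to GH3.3 on this scale.

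In the order of genes on the chromosome, in the gene table of assembly TAIR10.1, the protein-coding gene next to GH3.3 on one side, AT2G23160, was measured and passed in none of the 6 comparisons, with a difference of -0.22 at 3.5 HAP (adjusted p = 0.259). On the other side the nearest measured gene, AT2G23200, lay 3 genes away. It was called in 4 of the 6 comparisons, with 0.51 at 0.5 HAP (adjusted p = 0.00684), 0.62 at 8 HAP (adjusted p = 0.00162), 0.41 from 3.5 to 8 HAP (adjusted p = 0.0208) and -0.70 in ovules (adjusted p = 0.000395). Its difference at 3.5 HAP was 0.21 (adjusted p = 0.206) and from 0.5 to 3.5 HAP -0.31 (adjusted p = 0.108), the steps in which GH3.3 was at 4.04 and 3.22.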

How the data were processed

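The values deposited by the authors are linear intensity readings of 10 one-colour arrays, in a table of 22810 probe sets; the RNA had been amplified in repeated in vitro transcription, per the labels' protocols, and per the submitters' processing notes MAS5 was used, with no version or role. The common scale of the arrays was inferred from their medians, its method is unknown, and values were used as scaled. Probe sets were named from GEO's platform annotation, with loci looked up in RefSeq's TAIR10.1 gene table: 13512 named 1 gene, 503 several and 8730 none, and 13435 of those with 1 gene matched the gene table. The 64 control probe sets and 1 without values were left out, which left 22745. Values were taken as log2(value + 16) and fitted in all 5 groups at once with limma 3.58.1 in R 4.3.3 (lmFit, eBayes with an intensity trend; 5 residual and 6.106 prior degrees of freedom), with Benjamini-Hochberg adjustment over all tested probe sets and a threshold of 0.05. The fit was first tested on simulated data with planted changes. With 2 arrays a group their number limits the precision, and each test leans on a variance shared among probe sets; replicates differed by a log2 SD of 0.23 before pollination and of 0.12 to 0.15 after it.

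GH3.3, the gene lists and the comparisons were chosen with earlier results of these data known. The text names GH3.3, every measured GH3 gene, up to 4 members of each other auxin list by the pistil F test (others with a call were named after their values were seen), the 8 genes most like GH3.3, and the genes ranked next to it at 3.5 and 8 HAP (at most 5 above, 3 below); AT5G39580, ranked next to it from 0.5 to 3.5 HAP, was named after its values were seen. GH3.3 was given no test. Alternatives were quantile normalization, centring on 2 measured reference genes, a pseudocount of 1 or 64, a filter on the dimmest 40% of probe sets, only pistil groups, no trend, a replicate block, and leaving out each array. Python 3.11.15, pandas 2.3.3 and matplotlib 3.10.9 were used for tables and figures.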

Additional observations from a re-analysis of the deposited data

How the results depend on the processing

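The differences of GH3.3 kept their direction after quantile normalization and after centring on the reference genes, with the largest move among pollinated pistils from 4.04 to 4.18 at 3.5 HAP; in ovules the difference went from -0.25 to -0.61 with centring. They moved with the pseudocount, since GH3.3 starts near 0. With a pseudocount of 1 or 64 they were 1.09 and 0.46 (0.5 HAP), 4.57 and 3.11 (3.5 HAP), 4.99 and 3.50 (8 HAP), and 3.48 and 2.65 (0.5 to 3.5 HAP). Its rank by rise ran from 445 to 1479 (0.5 HAP), 3 to 21 (3.5 HAP), 4 to 27 (8 HAP), 2 to 3 (0.5 to 3.5 HAP), 1444 to 5176 (3.5 to 8 HAP) and 10658 to 19867 (ovules) over the alternatives that keep it; the filter on the dimmest 40% of probe sets removed GH3.3 and gave no value. Leaving out each array gave 0.70 to 0.94 (0.5 HAP), 3.89 to 4.19 (3.5 HAP), 4.35 to 4.56 (8 HAP), 3.07 to 3.37 (0.5 to 3.5 HAP), 0.26 to 0.56 (3.5 to 8 HAP) and -0.57 to 0.08 in ovules, where its sign depended on ovule replicate 1. Of the 8 most alike genes 3 were again among the first 8 with the pistil arrays alone, and 1 by Spearman's rho.

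Counts of called genes were small and moved easily. The number called among all probe sets moved with the setting too, so these ranges do not single out the listed genes. For the 15 other auxin genes, leaving out each array gave 0 to 5 (0.5 HAP), 0 to 3 (3.5 HAP), 3 to 5 (8 HAP), 0 to 4 (0.5 to 3.5 HAP), 2 to 5 (3.5 to 8 HAP) and 5 to 7 (ovules). For the 10 other GH3 genes it gave 0 to 2, 1 to 2, 2 to 3, 0 to 1, 0 to 1 and 3 to 6 in the same order. Quantile normalization gave 4 auxin genes at 0.5 HAP and 2 GH3 genes from 3.5 to 8 HAP, where it called 7258 and 7106 of the 22745 probe sets. Centring on the reference genes gave 1 auxin and 0 GH3 genes at 0.5 HAP, 1 and 0 from 0.5 to 3.5 HAP, and 11 and 10 in ovules. Of the 22745 probe sets it called 5481, 2003 and 13924 in these comparisons, against 6880, 3228 and 11746 in the main fit. Without the dimmest 40% of probe sets, which removed most of these genes, the auxin counts were 2 at 8 HAP, 1 from 3.5 to 8 HAP and 1 in ovules, and the GH3 counts 0 at 0.5 HAP, 1 at 8 HAP, 0 from 3.5 to 8 HAP and 2 in ovules. Of 511 values of the 30 single calls under an alternative, 428 stayed past the threshold, 83 did not and 0 changed sign. Same-numbered replicates did not deviate together (r of deviations -0.323 to 0.105), so the numbers were not taken to pair the samples; with the number as a replicate block the auxin count from 0.5 to 3.5 HAP was 1 and the GH3 count at 0.5 HAP was 0.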
